A study of Mus musculus with 2 samples.

Results

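Gdpd3, Dmbt1, Gm1966, Gm15483 and 5430419D17Rik are 5 genes whose symbols RefSeq places on mouse chromosome 7 and whose array signals lay at least 4-fold apart in sorted mammary stromal cells with and without stromal Gli2. They were picked for that difference, out of 24646 gene symbols on the array, so the size of the difference is given here as a description and carries no test. RNA was hybridised to Affymetrix arrays from 1 sample of Gli2∆S cells, in which Gli2, a transcription factor of the hedgehog pathway, was ablated in the stroma, and from 1 sample of Gli2WT control cells. Both came from littermates 10 weeks old, and both were GFP-positive cells sorted from dissociated mammary glands through the Rosa26mTmG reporter, which records Cre activity. Cre was driven by Fsp1 in both samples, so the comparison is limited to cells in which that promoter has been active. Each sample carries a single mouse number, no label says whether glands of several mice were pooled, and with 1 sample per group no difference has a replicate check.

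Gdpd3 encodes a glycerophosphodiester phosphodiesterase domain protein, an enzyme that releases bioactive lipids, among them lysophosphatidic acid and N-acylethanolamines, from lysophospholipid precursors. Dmbt1 encodes a large secreted glycoprotein of mucosal epithelia, built of scavenger receptor cysteine-rich, CUB and zona pellucida domains, that binds bacteria and host defence proteins. 5430419D17Rik lies close to Dmbt1, and RefSeq now lists it as Cdcp3. Gm1966 lies at the edge of a cluster of very large interferon-inducible GTPases, which are giant GTP-binding proteins and pseudogenes related to the guanylate-binding proteins. Gm15483 is listed by RefSeq as a pseudogene, and its row on the array is also annotated with Rps13, a protein of the small ribosomal subunit.

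Because the ablated gene encodes a GLI factor and Gm1966 lies beside interferon-inducible genes, the promoters of the members were searched for the motif of each kind of factor. RefSeq promoter sequences of build GRCm38.p6, running from 250 bases before to 50 bases after the gene start, were found for 3 of the 5 genes. Capitals mark a match to the TATA box letters TATAAA or to the letters of the interferon response motif core GAAANNGAA, both strands searched, and no matches overlapped. The sequences are those of Gdpd3 (chr7:126766164-126766463, plus strand), 5430419D17Rik (chr7:131174152-131174451, plus strand) and Gm1966 (chr7:106644596-106644895, minus strand).
Gdpd3: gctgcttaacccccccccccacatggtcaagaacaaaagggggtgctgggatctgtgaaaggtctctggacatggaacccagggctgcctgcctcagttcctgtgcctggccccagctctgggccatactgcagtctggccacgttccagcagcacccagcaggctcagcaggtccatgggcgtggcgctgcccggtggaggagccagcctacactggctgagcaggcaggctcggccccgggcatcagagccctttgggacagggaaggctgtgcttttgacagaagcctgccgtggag
5430419D17Rik: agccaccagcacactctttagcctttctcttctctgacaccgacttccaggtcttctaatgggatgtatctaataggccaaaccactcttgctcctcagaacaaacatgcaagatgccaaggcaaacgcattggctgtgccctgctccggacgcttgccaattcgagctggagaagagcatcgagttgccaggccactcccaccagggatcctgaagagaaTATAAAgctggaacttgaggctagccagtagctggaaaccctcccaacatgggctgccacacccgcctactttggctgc
Gm1966: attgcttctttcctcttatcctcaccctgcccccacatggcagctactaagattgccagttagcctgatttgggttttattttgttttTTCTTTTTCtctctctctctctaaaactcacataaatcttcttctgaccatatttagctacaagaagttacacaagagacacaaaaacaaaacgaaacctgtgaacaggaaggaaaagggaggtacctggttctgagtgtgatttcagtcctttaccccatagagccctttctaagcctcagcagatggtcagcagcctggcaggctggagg
The GLI letters TGGGTGGTC were in 0 of these 3 windows, and 0.253% of 32851 RefSeq promoters of the same length hold them. The Gm1966 window held 1 match to the interferon response letters, read on the strand opposite to the gene, in a pyrimidine-rich stretch, and 8.56% of all promoters hold such a match. The 5430419D17Rik window held 1 TATA match, as 13.6% of promoters do. The Gdpd3 window held 0 matches to any of the 3 motifs and was rich in G and C (64.3%), against 53.3% for 5430419D17Rik, 43.7% for Gm1966 and a median of 52.7% over all promoters. A match is a description of letters and not a binding site.

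The targeted gene itself, Gli2, had a log2 signal of 5.32 in the Gli2∆S sample and 5.94 in the control sample, a difference of -0.62, and neither labels nor files say where its probes lie relative to the deleted part. Log2 signals ran from 1.73 to 13.59 in the Gli2∆S sample and from 1.94 to 13.60 in the control sample, with a median of 6.13 in both. No detection calls come with these values, so a signal near or below that median is not shown to exceed background. All differences below are log2 signal in the Gli2∆S sample minus the control sample.

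The 5 genes did not share a direction. Of the 5, 3 were lower in the Gli2∆S sample and 2 were higher. At least 4-fold apart were 0.0325% of all symbols in the lower direction and 0.0162% in the higher, and since the genes were picked by this measure nothing is read from their count. Each symbol stood on 1 row of the table. The annotation of a second row, filed under Rps13, also names Gm15483.

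**Figure D1:**
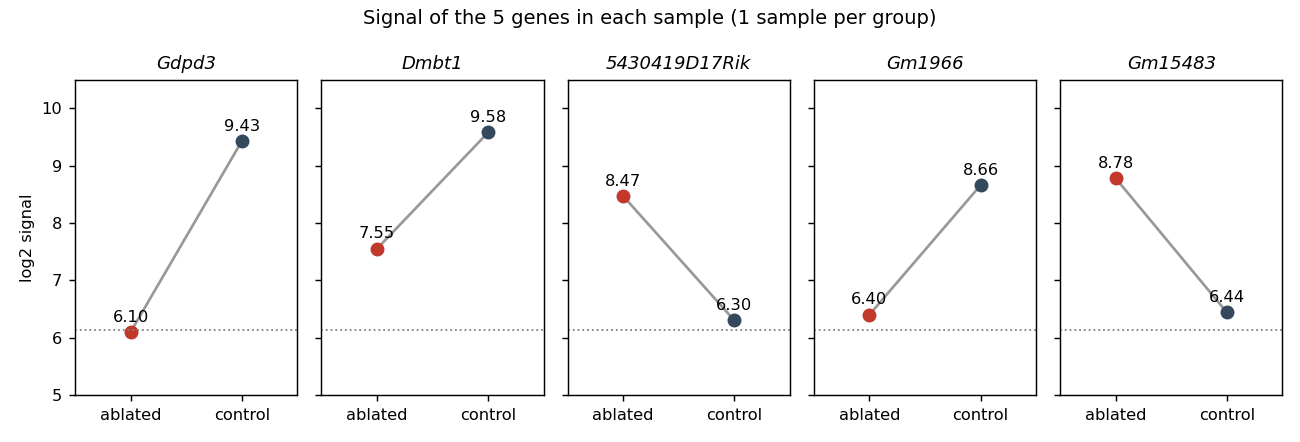
Log2 signal (y axis) of each of the 5 genes in the Gli2∆S sample (ablated, red, left) and the control sample (dark, right); each point is 1 sample, and the dotted line is the median signal of 6.13. Gdpd3, Dmbt1 and Gm1966 are lower in the ablated sample, and 5430419D17Rik and Gm15483 are higher.

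Gdpd3 had the widest gap of the 5. Its log2 signal was 6.10 in the Gli2∆S sample and 9.43 in the control sample, a difference of -3.33 or 10.1-fold, and the authors' deposited table gives a fold of 10.07 for control over ablated. Only 1 row with a gene symbol had a lower difference. The signal in the Gli2∆S sample lay just under the median of that array, where it cannot be told from background, so the size of the gap is uncertain. Among the 2067 rows of like mean signal the spread of differences was 0.22 (scaled median absolute deviation), and Gdpd3 had the lowest value there. Gdpd3 was picked on this difference, so its rank is a description. The spread is across genes and does not measure variation between replicates. In bulk samples such as these, fewer cells of a type and less RNA per cell cannot be told apart.

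Dmbt1 and 5430419D17Rik, which lie close to each other on the chromosome, went in opposite directions. Dmbt1 had 7.55 in the Gli2∆S sample and 9.58 in the control sample, a difference of -2.03, which lay only just past 4-fold. 5430419D17Rik had 8.47 in the Gli2∆S sample and 6.30 in the control sample, a difference of 2.17 or 4.50-fold. For Dmbt1 both signals stood clear of the array median, while the control signal of 5430419D17Rik was near it. The authors' deposited table gives signed folds of control over ablated of 4.09 for Dmbt1 and -4.49 for 5430419D17Rik.

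The remaining members are predicted genes. Gm1966, which RefSeq now lists as protein-coding, had 6.40 in the Gli2∆S sample and 8.66 in the control sample, a difference of -2.26 or 4.79-fold. Gm15483 had 8.78 in the Gli2∆S sample and 6.44 in the control sample, a difference of 2.34 or 5.06-fold. In both rows the dimmer sample, Gli2∆S for Gm1966 and control for Gm15483, was near the array median. The signed folds in the authors' deposited table are 4.8 for Gm1966 and -5.07 for Gm15483. The rows of like signal had a spread of 0.19 around Dmbt1, 0.24 around 5430419D17Rik and 0.22 around both predicted genes, again across genes and not replicates.

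The threshold that chose the genes left others just inside and outside it. On chromosome 7, Dmbt1 was the lower member nearest to 4-fold, level with the matrix protein gene Spon1 (-2.03), while Art2b, an ADP-ribosyltransferase of T cells, lay just outside at -1.97. Trim34a (-1.84) and Gm4759 (-1.75) came next. On the higher side 5430419D17Rik (2.17) was nearest inside, and the small nucleolar RNA Snord34 (1.61), followed by Snord32a (1.29), was nearest outside. With 2 samples the difference is the only measure of how alike the patterns of these genes are.

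Chromosome 7 held most genes at least 4-fold apart. Of 12 such symbols in the whole table, 8 were assigned to chromosome 7, which is 0.38% of its 2104 symbols, and 4 lay elsewhere, which is 0.0186% of 21542 symbols. The 3 besides the members were Klk1b22 (5.97), Trim12a (-3.54) and Spon1. The 4 elsewhere were the matrix protease gene Mmp3 (-2.63) on chromosome 9, an antibody kappa chain variable segment (-2.43) on chromosome 6, the complement gene Hc (-2.07) on chromosome 2 and Gm12888 (2.36) on chromosome 4. On 16 of the 21 chromosomes there was 0 of them. Since the members were picked from this chromosome by this measure, the count is a description.

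At 2-fold the share on chromosome 7 lay within the range of the others. There 1.38% of chromosome 7 symbols were 2-fold apart, 9 higher and 20 lower, against 1.25% of symbols on other chromosomes. By that share chromosome 7 was sixth of 21, and the shares ran from 0.79% on chromosome 15 to 2.20% on chromosome 6, leaving out Y, where 0 of 23 symbols were 2-fold apart. The spread of differences on chromosome 7 (0.24) lay within the range over all chromosomes, 0.21 to 0.25, and the median difference was 0.02.

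**Figure D2:**
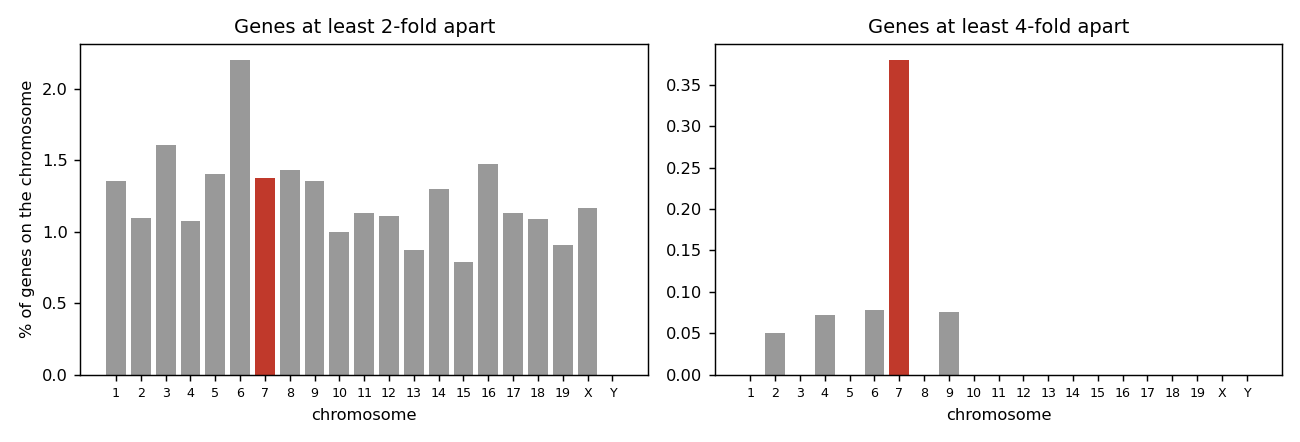
Share of the gene symbols of each chromosome (x axis) that were at least 2-fold (left) or 4-fold (right) apart between the Gli2∆S and control samples, in percent of symbols (y axis); chromosome 7 is red. Chromosome 7 stands at 1.38% for 2-fold, within the range of the others, and at 0.38% for 4-fold, above all others.

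The places of the 4-fold genes along the chromosome are given as a description, and how evenly these few genes lie was not tested. In RefSeq order Gm1966 was gene 1521 of 2103, Gdpd3 was gene 1779, Dmbt1 gene 1877, 5430419D17Rik gene 1880 and Gm15483, by its symbol, gene 1910. The genes were cut into 4 runs of nearly equal size. The last run held 5 of the 8 genes at least 4-fold apart, the third run 2, the second run 1 and the first run 0. Gm15483 is counted in the last run by its symbol only, and its place is uncertain, as described below. The lower genes at least 2-fold apart were 7 in the last run, 9 in the third, 3 in the second and 1 in the first. The higher ones were 3 in the last run, 2 in the third, 4 in the second and 0 in the first. Each run held 525 or 526 genes, and over all symbols 0.933% were at least 2-fold lower and 0.304% at least 2-fold higher.

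Most genes lying between the members stayed near 0. Between Gm1966 and Gdpd3 there were 257 measured genes, of which 91.8% were within 0.5 of equal signal. The 3 genes past 2-fold were all lower in the Gli2∆S sample, namely Adm, the vasodilator peptide adrenomedullin (-1.05), Mical2, an actin-oxidising enzyme (-1.20), and Spon1. Between Gdpd3 and Dmbt1, 93.8% of 97 genes were within 0.5, the small nucleolar RNA Snora30 (1.14) and Htra1 (-1.25) being 2-fold apart. The 2 genes between Dmbt1 and 5430419D17Rik were within 0.5, as were 96.6% of the 29 between 5430419D17Rik and the symbol's place of Gm15483, where Cpxm2, a carboxypeptidase family gene, was 2-fold lower (-1.17). Over all symbols the share within 0.5 was 92.1%. Whether the littermates differed in sequence along this chromosome was not tested, and no genotypes were analysed here.

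**Figure D3:**
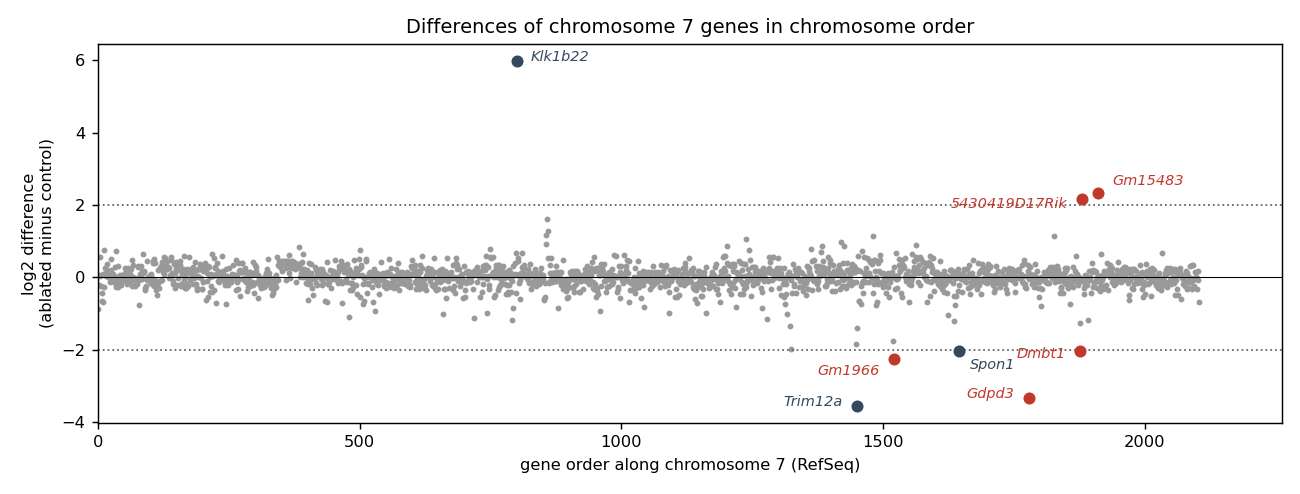
Log2 difference, Gli2∆S minus control (y axis), of 2103 genes in RefSeq order along chromosome 7 (x axis, gene number); red points are the 5 genes described here, dark points the other 3 at least 4-fold apart, and dotted lines mark 4-fold. Most genes lie near 0 between the labelled ones.

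The neighbours of Gdpd3 had near equal signals, as most genes did. All 20 named genes around it, 10 on each side, were within 0.5 of equal signal, with a median of 0.05. The share within 0.5 was 92.1% over all symbols, so 20 of 20 is near the general share. Mapk3, a mitogen-activated protein kinase and the next gene on one side, had 9.96 in the Gli2∆S sample and 10.01 in the control sample. Ypel3, the next on the other side, had 8.47 in the Gli2∆S sample and 8.38 in the control sample. The highest was Apobr, a lipoprotein receptor gene (0.47), and the lowest Sult1a1, a sulfotransferase gene (-0.28). Coro1a, an actin regulator of leukocytes in the same stretch, had a difference of 0.18.

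Around Dmbt1 and 5430419D17Rik the adjoining gene Htra1 was also lower. Htra1, a secreted serine protease, had 7.04 in the Gli2∆S sample and 8.29 in the control sample, a difference of -1.25. Of the 19 other genes around Dmbt1, it alone was 2-fold apart, against 1.24% over all symbols, and the median of the 19 was -0.06. The 2 genes between Dmbt1 and 5430419D17Rik, 4933402N03Rik (-0.06) and 1700029B22Rik (-0.07), lay below the array median in both samples. On the far side of 5430419D17Rik, Cuzd1, which like Dmbt1 encodes a protein with CUB and zona pellucida domains, was below it too, with 5.08 in the Gli2∆S sample and 5.13 in the control sample. Fgfr2, a fibroblast growth factor receptor, was the highest neighbour of Dmbt1 at 0.60.

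**Figure D4:**
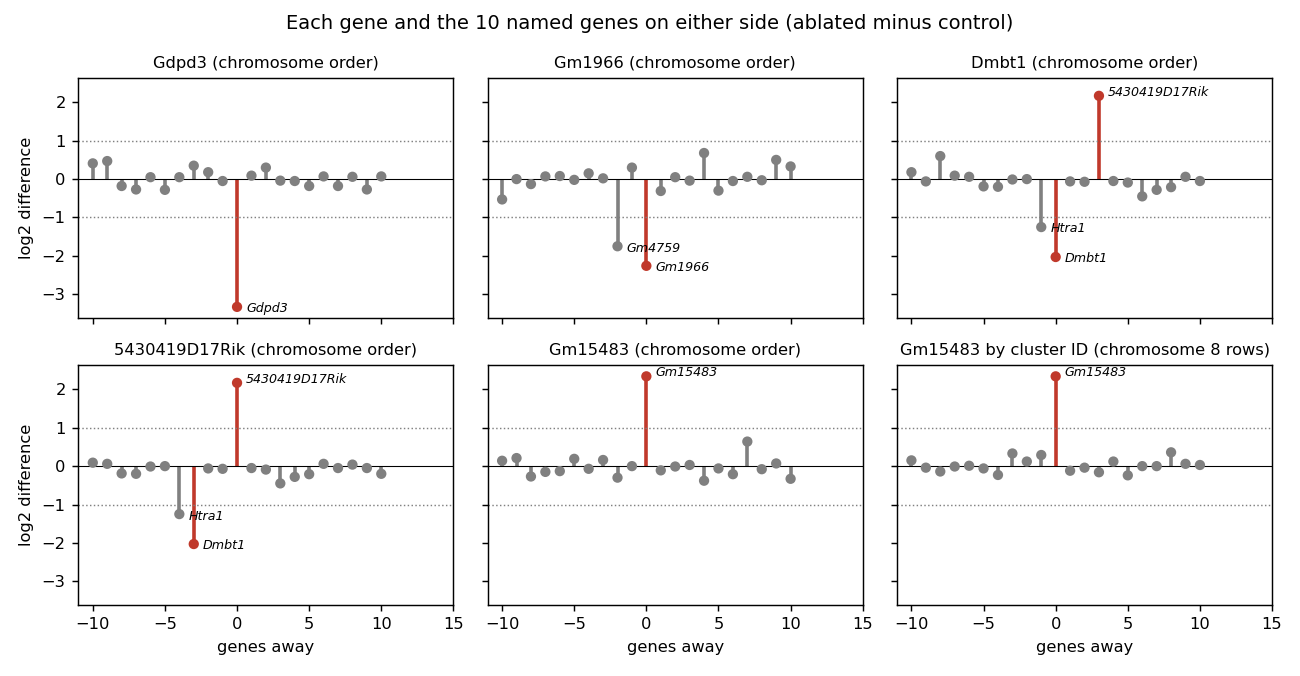
Log2 difference, Gli2∆S minus control (y axis), of each gene at position 0 and the named genes up to 10 places away on either side (x axis); red marks the 5 genes, dotted lines mark 2-fold, and names are given past 2-fold. Gdpd3 and Gm15483 have no neighbour past 2-fold, Dmbt1 has Htra1 beside it, and Gm1966 has Gm4759 near it.

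Gm1966 was picked for its gap, so the values of its gene family are given beside it as a description. Of 9 rows for the very large interferon-inducible GTPases and their pseudogenes, Gm1966 (-2.26) and Gm4759 (-1.75) were at least 2-fold lower in the Gli2∆S sample. The share at least 2-fold lower was 0.933% over all symbols. Gm4759 had 8.11 in the Gli2∆S sample and 9.86 in the control sample, and in chromosome order it lies 2 genes from Gm1966. The other 7 rows ran from -0.02 to 0.30. Gvin1, which gives the family its name, had 9.14 in the Gli2∆S sample and 8.99 in the control sample (0.15), and Gm8995, which lies between Gm4759 and Gm1966, had 10.93 in the Gli2∆S sample and 10.63 in the control sample (0.30). The annotation of 4 of the rows names Gm4070 together with Gvin1, so signal may be shared between these near-identical copies, and values within the family are uncertain for that reason. The olfactory receptor genes on the other side of Gm1966 ran from -0.31 (Olfr693) to 0.68 (Olfr697).

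Smaller interferon-induced GTPases had differences under 2-fold, but Gm1966 was picked for its gap, so nothing is read from the contrast. Of 15 measured, 6 were higher and 9 lower in the Gli2∆S sample, 0 were 2-fold apart, and the median was -0.11, against 0 over all symbols. Over all symbols 0.304% were at least 2-fold higher, 0.933% at least 2-fold lower and 1.24% either. The smaller GTPases ran from Mx2, an antiviral GTPase (-0.80), to the guanylate-binding protein Gbp7 (0.29).

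The place of the Gm15483 row on chromosome 7 rests on its symbol alone. Cluster numbers on this array mostly follow the chromosomes, with 97.8% of adjacent named rows on the same chromosome. For the other 4 genes, all 20 of the nearest named rows by cluster number were on chromosome 7, but for Gm15483 all 20 were on chromosome 8 and 0 on chromosome 7. Such a mismatch with both adjacent rows was found in 1.17% of 25882 named rows. The row's annotation also names Gm6834, which RefSeq lists as Rps13-ps4 on chromosome 8, between Taf1c and Adad2. RefSeq has another pseudogene, Rps13-ps1, on that chromosome, between N4bp1 and Gm10637. None of these flanking genes was among the 20 named rows nearest to the Gm15483 row by cluster number. Which of the pseudogenes, if any, the row belongs to was not tested. Without this row 7 symbols on chromosome 7 were at least 4-fold apart. By either order the neighbours were near equal, with a median of -0.07 around the symbol's place and 0 around the cluster number's place. In each, 0 of the 20 were 2-fold apart, near the share of 1.24% over all symbols.

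Rps13 itself did not show the gap of the Gm15483 row. Its row with the higher signal had 9.87 in the Gli2∆S sample and 10.15 in the control sample, a difference of -0.28. A second Rps13 row, whose annotation also names Gm15483, had 7.54 in the Gli2∆S sample and 7.17 in the control sample, a difference of 0.37. The row of Snord14a, a small nucleolar RNA annotated with Rps13, was level at 9.79 in the Gli2∆S sample and 9.78 in the control sample. Probes for pseudogenes can also take up RNA of the parent gene, and which transcript gave the signal of the Gm15483 row was not tested.

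No gap like that of Gdpd3, which was picked for its gap, was measured for other glycerophosphodiesterases. Only 3 of them had signals above the array median in both samples, so that a gap could go unseen in the rest. Of the 6 other family members measured, 4 were higher and 2 lower in the Gli2∆S sample, 0 were 2-fold apart, and the median was 0.08. Over all symbols 50.0% were higher, 47.0% lower and 1.24% at least 2-fold apart, so 0 of 6 is near the general share. The 3 above the array median in both samples were Gde1, Gpcpd1 and Gdpd5. Gdpd1, which also releases lysophosphatidic acid, was farthest from 0, with 5.78 in the Gli2∆S sample and 6.43 in the control sample (-0.65). Gde1, which acts on N-acylethanolamine precursors, had a difference of -0.13, and Gpcpd1, which breaks down glycerophosphocholine, had 0.13. Gdpd5 had 0.15, while Gdpd4 (0.17) and Gdpd2 (0.03) lay below the array median in both samples.

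Of 16 listed enzymes that make or break down the same lipids, 12 were lower and 4 higher in the Gli2∆S sample, with a median of -0.29, and 2 were at least 2-fold lower. Over all symbols 47.0% were lower, 0.933% at least 2-fold lower, and the median was 0. Fibroblast markers, given below, had a median of -1.34 in the same comparison, with 8 of 10 at least 2-fold lower, and their part in these values was not tested. The 2 enzymes at least 2-fold lower were Enpp2 and Ppap2b. Enpp2, which encodes autotaxin, the main secreted producer of lysophosphatidic acid, had 8.18 in the Gli2∆S sample and 9.65 in the control sample (-1.47). Ppap2b, a phosphatase that degrades lysophosphatidic acid, had 8.58 in the Gli2∆S sample and 9.72 in the control sample (-1.14). Naaa, which hydrolyses N-acylethanolamines, had -0.53, while Faah, the other main hydrolase, had 0.13 and Napepld, which makes them, -0.15. Acp6, a lysophosphatidic acid phosphatase, was highest at 0.25. Of 6 lysophosphatidic acid receptors, 0 were 2-fold apart, against 1.24% over all symbols. The receptors ran from Lpar4 (-0.56) and Lpar1 (-0.51) to Lpar6 (0.22).

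Dmbt1 was picked for its difference, so smaller differences in genes with like domains follow from that choice and are given as a description. Over all symbols 47.0% were lower, 50.0% higher and 1.24% at least 2-fold apart. Of 14 other scavenger receptor cysteine-rich genes, 9 were lower and 5 higher in the Gli2∆S sample, with a median of -0.16. Only Loxl2, a matrix cross-linking oxidase with such domains, was 2-fold apart (7.13 in the Gli2∆S sample and 8.22 in the control sample, difference -1.09), ahead of Loxl3 (-0.67) and the ferritin receptor Scara5 (-0.62). The lymphocyte receptor Cd6 was highest at 0.25. The 9 listed genes with CUB or zona pellucida domains had differences from -0.45 (Tgfbr3) to -0.03 (Oit3) and a median of -0.21. That list holds neither Dmbt1 (-2.03) nor 5430419D17Rik (2.17). Of the 9, 7 were not above the array median in both samples. The other 2, Tgfbr3 and Eng, had a median of -0.445. Mucosal defence genes had a median of -0.05 over 10, or -0.15 over the 6 above the array median in both samples, from Muc1, a membrane mucin (-0.31), to the iron-binding milk protein lactoferrin, Ltf (0.21).

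**Figure D5:**
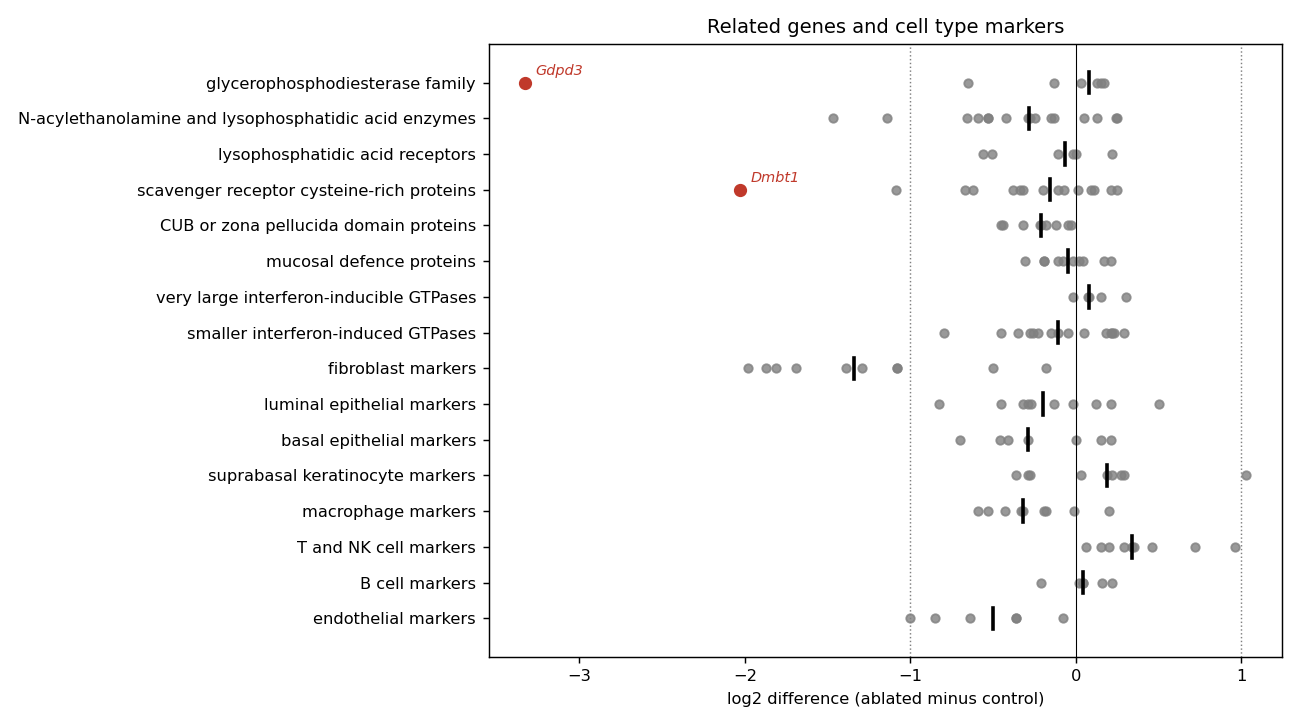
Log2 difference, Gli2∆S minus control (x axis), of genes related to the members and of cell type markers (rows); grey points are genes, red points Gdpd3 and Dmbt1, black bars the median without the members, and dotted lines 2-fold. The row of very large interferon-inducible GTPases leaves out Gm1966, Gm4759 (-1.75) and Gm8989. Gdpd3 and Dmbt1, picked for their gaps, lie left of all other points of their rows, and fibroblast markers have a median of -1.34.

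Markers of several cell types differed between the samples along with these genes. All 10 fibroblast markers were lower in the Gli2∆S sample, 8 of them by 2-fold or more (median -1.34), and their summed linear signal was 7366 in the Gli2∆S sample and 13865 in the control sample. Pdgfra (-1.98) and Col1a1 (-1.87) were among the lowest, and S100a4, whose promoter is that of Fsp1, was nearly level (-0.18). Luminal epithelial markers summed to 4364 in the Gli2∆S sample and 4701 in the control sample, and 0 of 10 were 2-fold apart. Of these 10 luminal markers, 9 were above the array median in both samples, so epithelial signal was present in each. Over all symbols 47.0% were lower, 0.933% at least 2-fold lower and 1.24% at least 2-fold apart in either direction. Basal epithelial markers summed to 388 in the Gli2∆S sample and 452 in the control sample, but 0 of the 7 were above the array median in the Gli2∆S sample and 3 in the control sample, so the sums are mostly of signals not shown to exceed background. Of the 9 suprabasal keratinocyte markers, only Sprr1a was 2-fold apart (1.03), and it alone was above the array median in both samples.

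Leukocyte markers stood beside the fibroblast markers in both samples, with all 10 fibroblast, 9 T and NK cell, 6 B cell and 9 macrophage markers above the array median in each. The T and NK cell markers were all higher in the Gli2∆S sample, with a median of 0.34 and sums of 11383 in the Gli2∆S sample and 9088 in the control sample. Over all symbols 50.0% were higher and 47.0% lower. B cell markers summed to 9321 in the Gli2∆S sample and 9428 in the control sample. Macrophage markers summed to 4724 in the Gli2∆S sample and 5562 in the control sample, and the 6 endothelial markers, all lower in the Gli2∆S sample, to 2447 in the Gli2∆S sample and 3278 in the control sample. Pdgfra had the widest gap of the markers on these lists (-1.98), short of the 4-fold that chose the members. That the members had wider gaps than the markers therefore follows from the choice, and nothing is read from it. The part of cell composition in the differences of the 5 genes was not tested.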

How the data were processed

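Stromal cells of 1 Gli2∆S and 1 control sample were compared. Per the file headers, the authors deposited a log2 signal (a bi-weight average) per transcript cluster and sample, and a signed linear fold of control over ablated, a score with a minus sign for genes higher after ablation. The series' value table holds the same log2 signals with more decimals, differing by over 0.01 in 2 rows. Per the submitters' processing notes, Transcriptome Analysis Console was used; the build, array design and normalization steps are not stated in the labels or files. The table held 41345 rows with values and 1 blank row, and 27036 rows had a symbol. The measure was the log2 difference, ablated minus control. For counts by gene, the row with the highest mean signal stood for each of 24646 symbols. Of these, 23646 (95.9%) were matched to RefSeq genes of GRCm38.p6 by symbol, accession or synonym, for chromosome and gene order only.

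No test was possible with 1 sample per group, and the number of arrays limits the precision: genes were counted by fixed folds. Members and lists were chosen with earlier results of these data known. Named were the members, their neighbours, list members farthest from 0 or 2-fold apart, and chromosome 7 genes at or just under 4-fold; some list members nearer 0 were named as well after their values were seen. The 4-fold counts, the scalings and the gene order were tested on simulated data, with gaps placed only in brighter named rows. The medians of lists and neighbours and the motif search were not tested in this way. Alternatives were quantile, loess (span 0.3) and median scaling, the deposited fold, the value table, signal filters, other folds, other numbers of neighbours and gene means. Software was statsmodels 0.14.6, matplotlib 3.10.9, pandas 2.3.3, scipy 1.17.1 and numpy 2.4.6 under Python 3.11.15.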

Additional observations from a re-analysis of the deposited data

How the results depend on the processing

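The differences of the 5 genes kept their direction and stayed past 4-fold under all scalings and both other sources of the values that were tried: -3.37 to -3.33 for Gdpd3, -2.08 to -2.03 for Dmbt1, -2.30 to -2.26 for Gm1966, 2.30 to 2.34 for Gm15483 and 2.14 to 2.17 for 5430419D17Rik. All of these values come from the same arrays, so they do not show whether the gaps would repeat in other mice. Of 203 values recomputed under alternatives, 7 moved. Moved means that a difference shifted by at least the spread over all rows (0.25), or that a count changed beyond a fixed ratio. Over all rows, 435 were at least 2-fold higher and 460 at least 2-fold lower in the Gli2∆S sample. The higher count was 206 with a signal filter at the median, 93 with a filter at the 75th percentile and 80 over rows with a symbol, and the lower count was 208 under that stricter filter and 249 over rows with a symbol, as fewer rows were counted. The 8 chromosome 7 symbols at least 4-fold apart became 12 at 3-fold and 29 at 2-fold, and 7 without the Gm15483 row, an alternative chosen after seeing the data. The median of the suprabasal keratinocyte markers, 0.19, was 1.03 with the signal filter, which only 1 gene, Sprr1a, passed. Of the 7 basal epithelial markers, 0 passed it. No paired analysis was possible because each group holds 1 sample. The dimmer signal of Gdpd3, Gm1966, Gm15483 and 5430419D17Rik lay near the array median, which limits how well the size of their gaps is known.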
